A study of Mus musculus with 56 samples.

Results

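Livers 4 h after food removal were compared between the dark and the light phase of the day. The comparison set the 4 libraries of daytime-fed mice at zeitgeber time 16 (DRF ZT16, 4 h into the dark) against the 4 libraries of nighttime-fed mice at ZT4 (NRF ZT4, 4 h into the light), 8 of the 56 liver libraries of the series. Zeitgeber time counts the hours from lights on in a day of 12 h light and 12 h dark. All animals were female C57BL/6J mice, 9 weeks old, with no genotype given beyond the strain, fed for 7 days in the 12 h light phase only (daytime-restricted feeding, DRF) or in the 12 h dark phase only (nighttime-restricted feeding, NRF). The series covers 7 times of day under each regimen, with 4 animals at each. DRF ZT16 and NRF ZT4 were therefore matched for the hours since food and differed both in the light phase and in the regimen, and within these 8 libraries light phase and regimen cannot be told apart. The 8 libraries were taken by their labels of regimen and time. The labels number the libraries of a group 1 to 4. The p-values of genes measure the spread between libraries of the same group, pooled over all 56 libraries and not over these 8 alone.

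The liver is the organ that carries glucose supply between meals: as the last meal is absorbed it turns from storing glycogen and fat to releasing glucose, first from glycogen and then from amino acids and lactate, and to burning fatty acids. Its cells also hold a circadian clock, a loop in which the activators Clock and Arntl drive the genes of their own repressors, the Per, Cry and Nr1d proteins. Feeding time is a strong setting signal for the liver clock, while light sets the central clock in the brain, which governs the daily rhythms of body temperature, activity and glucocorticoid hormone. In a mouse fed by day both signals oppose each other, and in a mouse fed by night they act in the usual order.

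Each value given here is a scaled count, the whole count of a gene recovered from the deposited values and brought to the same scale in every library, and it carries no correction for gene length, so levels are compared between libraries and not between genes. Differences are on the log2(scaled count + 1) scale, which understates the change of genes at low levels, and each was tested with limma across 24933 genes and all 56 libraries, with a gene called where its Benjamini-Hochberg adjusted p was under 0.05. The scaled sum of all genes ran from 969180 to 1040850 in DRF ZT16 and from 836632 to 898380 in NRF ZT4, with no overlap (exact permutation test, two-sided p = 0.0286, the smallest that 4 against 4 allows). Replicates correlated at 0.984 to 0.990 in DRF ZT16 and at 0.973 to 0.983 in NRF ZT4 over the log2 values of 13712 genes, and pairs of opposite groups at 0.967 to 0.977. NRF ZT4 replicates 3 and 4 stood apart from replicates 1 and 2 in an index of antisense against coding RNA, the median shift of 671 antisense genes from their average over the libraries less that of 8961 coding genes: it was 0.32 and 0.194 in those 2 libraries, and -0.216 to -0.0455 in the other 6.

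Markers of the hepatocyte, the cell that makes up most of the liver, were present in every library, with a summed scaled count of 144054 to 161335 in DRF ZT16 and of 115095 to 132006 in NRF ZT4. The sums of pericentral markers (7200.1 to 8099.7 against 5169 to 6711) and periportal markers (2561 to 2843 against 1895 to 2417) did not overlap either. Members went both ways: 3 higher and 1 lower of 8 hepatocyte markers, 4 and 1 of 9 pericentral and 5 and 1 of 8 periportal ones. The hepatocyte sum includes the abundant Cps1, which was itself higher (below). Sums for sinusoidal endothelium, Kupffer cells and stellate cells overlapped between the groups. Erythroid markers summed to 930.1 to 1302 in DRF ZT16 and 469 to 921 in NRF ZT4, with 2 of 5 called higher, Alas2 and Hbb-bt. Of 7 lymphocyte markers 2 were called lower, Cd79a and Ms4a1, and their sums overlapped at 17.7 to 24 against 18.2 to 35.2. Of 5 pancreas markers 1 was tested, at 1.58 to 3.4 in all 8 libraries, no adipocyte marker was analysed here, and no marker tested was at 0 in all libraries of a group. In bulk liver a change in the number of cells of a type and a change in the RNA of each cell cannot be told apart, and the part of these markers in the results below was not tested.

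Between DRF ZT16 and NRF ZT4, 4330 of 24933 genes were called (17.4%), 2393 of them higher in DRF ZT16 (9.6%) and 1937 lower (7.77%). In 3386 genes (13.6%) the call came with groups that did not overlap. Most differences were small: 99 called genes were higher and 65 lower by at least 1 on the log2 scale, and 11 higher and 7 lower by at least 2. The direction followed the level of the gene. Among 6651 genes with a mean of at least 10 scaled counts, 1697 were called higher (25.5%) and 454 lower (6.83%), with a median log2 difference of 0.10, whereas the median of all genes was -0.01. Of the 1301 genes with a mean of 100 or more, 555 were called higher and 49 lower (median 0.23), and of the 7061 genes with a mean of 1 to under 10, 450 and 866 (median -0.08). Many genes of the lists below were well expressed, and their counts are set against 25.5% higher and 6.83% lower. Since the share higher rose with the level, to 555 of 1301 genes, 25.5% is a low mark for lists of abundant genes.

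The balance between higher and lower calls depended on how the libraries were scaled. Of the calls, 55.3% were higher as reported, 50.4% with median-of-ratios scaling, 53.5% with a correction for gene length, 77.1% among genes with a mean of at least 10 refitted alone and 77.2% on the values as deposited. With every library scaled to the same sum, which sets the more abundant genes of DRF ZT16 against the rest, 13.3% of 6164 calls were higher (820 against 5344) and the median of the 13712 genes with a mean of at least 1 moved from 0.01 to -0.17. All differences below are relative to the scaling in which this median lay at 0.01. Without NRF ZT4 replicates 3 and 4, 1332 genes were higher and 884 lower.

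**Figure D1:**
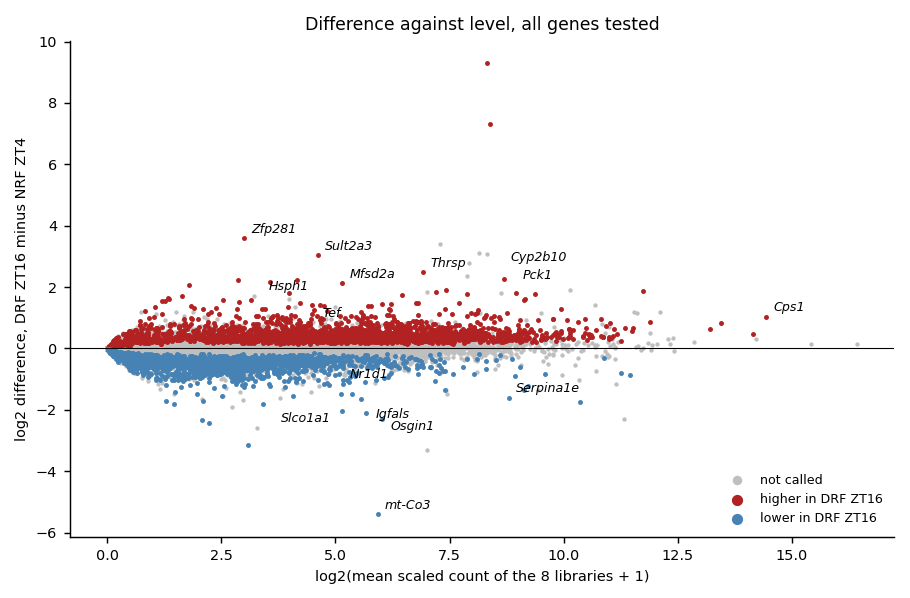
Each point is 1 of the 24933 genes tested, with the log2 of its mean scaled count over the 8 libraries (plus 1) on the x axis and the log2 difference DRF ZT16 minus NRF ZT4 on the y axis; red points were called higher, blue points lower and grey points were not called. Called genes at the right, above a mean of 100, were mostly higher in DRF ZT16 (555 against 49), and the names mark genes described in the text.

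The circadian clock differed between both fasting livers in most of its genes, and not in one direction. Of the 19 clock genes tested, 10 were called higher and 2 lower in DRF ZT16 (median log2 difference 0.43). Per1, a repressor of the loop, measured 7.6, 4.01, 3.14 and 2.9 in DRF ZT16 and 0.782, 1.01, 1.08 and 1.36 in NRF ZT4 (ENSMUSG00000020893, chr11:69095217-69109960). All 4 dark libraries lay above the 4 light ones, with replicate 1 of DRF ZT16 the highest (log2 difference 1.33 ± 0.27 (SE), adjusted p = 0.00044). The related repressors Per2 (log2 difference 1.05 ± 0.26 (SE), adjusted p = 0.0032) and Per3 (log2 difference 1.18 ± 0.20 (SE), adjusted p = 3.5e-05) showed the same order without overlap. Cry1, their partner in repression, had scaled counts of 95.8, 72.6, 55.1 and 68.9 in DRF ZT16 and 51.3, 29.957, 37 and 22.9 in NRF ZT4, a 2.07-fold difference of the means (log2 difference 1.06 ± 0.20 (SE), adjusted p = 0.00013). Cry2 was higher by 0.49 (adjusted p = 0.00073).

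Tef, a transcription factor of the clock's output that binds D-box elements, stood at 29.6, 33.5, 30.1 and 32.6 in DRF ZT16 and 13.4, 13.4, 10.7 and 13.2 in NRF ZT4 (log2 difference 1.25 ± 0.18 (SE), adjusted p = 3.7e-06), though it overlaps the antisense gene Gm17597. Bhlhe40, a further repressor of Clock and Arntl, was higher by 0.96 (adjusted p = 0.0036). The opposite direction was seen in Nr1d1, the nuclear receptor Rev-erb alpha that represses Arntl: it measured 11.8, 19.7, 28.1 and 27.9 in DRF ZT16 and 54.2, 54.6, 42.9 and 39.2 in NRF ZT4 (ENSMUSG00000020889, chr11:98767932-98775333). The groups did not overlap and the mean was 2.18 times as high in the light (log2 difference -1.15 ± 0.31 (SE), adjusted p = 0.0072), but the call was lost without DRF ZT16 replicate 1 (adjusted p = 0.058), and Nr1d1 overlaps the end of Thra on the other strand. Its relative Nr1d2 went the other way (0.59, adjusted p = 0.0092), with overlapping groups. Npas2, which can replace Clock, was lower (-0.60, adjusted p = 0.011), a call lost without NRF ZT4 replicates 1 or 2 in turn (adjusted p up to 0.057). Nfil3, a repressor at D-box elements, and Rora, which competes with the Nr1d receptors, were higher by 0.57 and 0.27, and the call of Nfil3 was lost without DRF ZT16 replicate 1 or NRF ZT4 replicate 4 in turn (adjusted p up to 0.11).

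The 7 clock genes that were not called included the activators. Arntl measured 71.2, 56.9, 55.6 and 56.8 in DRF ZT16 and 66.5, 57, 50.1 and 42 in NRF ZT4, with overlapping groups (log2 difference 0.17, adjusted p = 0.6). Dbp, like Tef a D-box activator, stood at 1.08, 1.97, 2.22 and 3.22 in DRF ZT16 and 1.52, 2.86, 0.934 and 2.36 in NRF ZT4 and overlapped too (0.10, adjusted p = 0.8). Clock (0.32, adjusted p = 0.15) and Hlf (-0.14, adjusted p = 0.66) also missed the threshold. Ciart and Bhlhe41 lay below 0.3 scaled counts in all 8 libraries. Without NRF ZT4 replicates 3 and 4, 6 clock genes were higher and 2 lower.

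The E-box, the sequence CACGTG bound by Clock with Arntl, was sought in the promoters of these genes, 250 bases before to 50 after the start of transcription (RefSeq, GRCm38.p6, both strands, the motif being its own reverse). Of the 19 genes 16 had such a window, and 5 held the motif, as did 7.15% of 32851 promoters. A gene was counted if any of its windows matched, whereas the percentage counts single windows. Clock and Arntl are also known to drive several of these genes, so the share says nothing of these libraries. They were Per1, Cry1 and Tef, called higher, and Ciart and Bhlhe41, not called. The windows of the 3 called genes are shown because the same letters stood by genes that moved together, with the E-box in capitals, at chr11:69098753-69098818, plus strand, at chr10:85185079-85185144, minus strand, and at chr15:81802534-81802563, plus strand.
Per1: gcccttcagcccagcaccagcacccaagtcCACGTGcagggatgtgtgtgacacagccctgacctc
Cry1: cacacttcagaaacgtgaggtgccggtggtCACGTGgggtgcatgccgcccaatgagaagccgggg
Tef: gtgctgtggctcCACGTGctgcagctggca
The E-box began 166 bases before the start in Per1, 60 before it in Cry1 and 127 before it in Tef. The D-box TTATGTAA was in 0.938% of promoters and in 1 clock gene, Per3. A match describes the letters only.

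**Figure D2:**
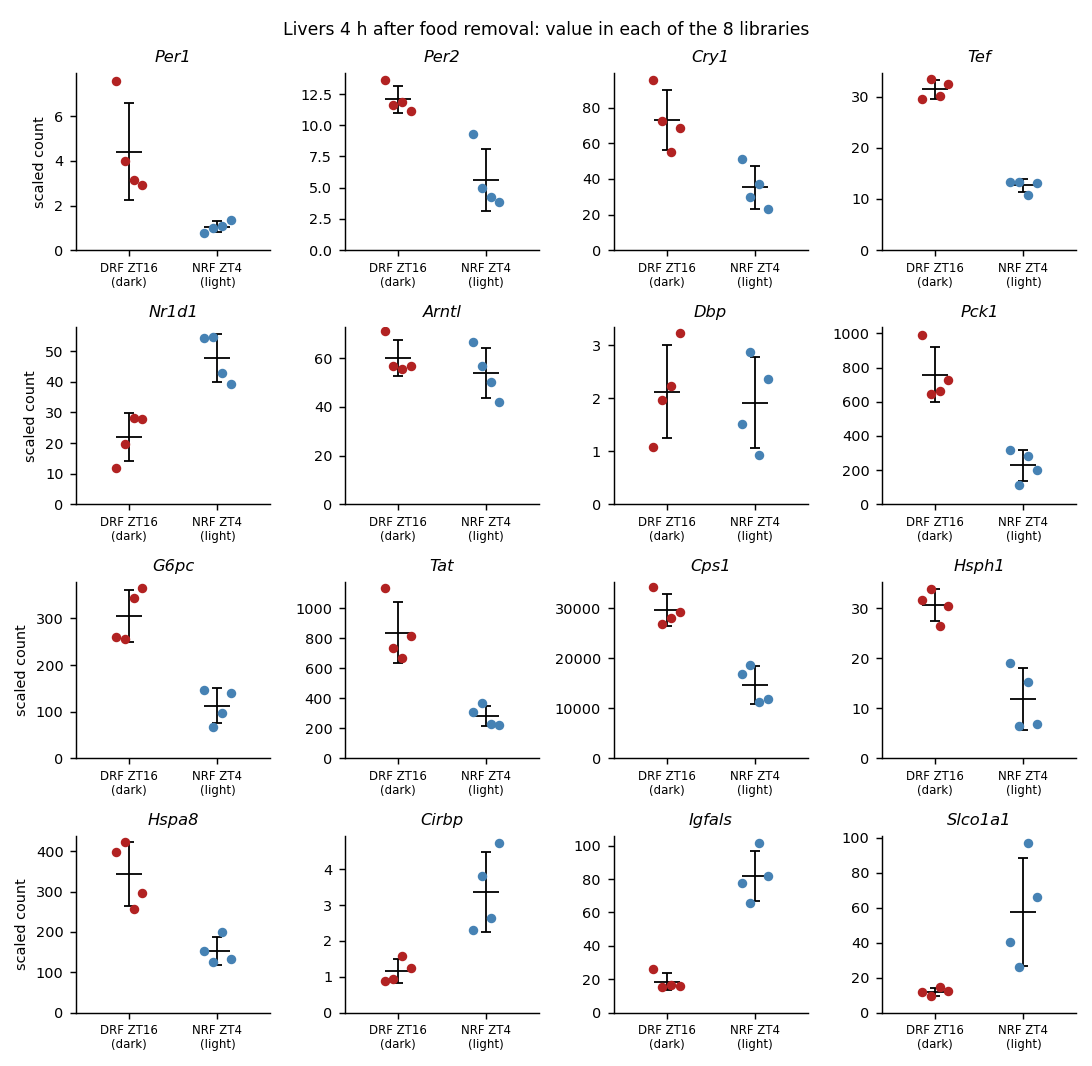
Scaled counts of 16 genes in each of the 8 libraries, DRF ZT16 in red and NRF ZT4 in blue, with the mean (long bar) and SD (short bars) of the 4 libraries of a group and a y axis that starts at 0 in every panel. The groups do not overlap in 14 of the panels and overlap in Arntl and Dbp; Nr1d1, Cirbp, Igfals and Slco1a1 are lower in DRF ZT16 and the other 10 higher.

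Gluconeogenesis, the making of glucose from amino acids, lactate and glycerol, was the list with the highest median. Of its 15 genes 11 were called higher and none lower (median 0.67), 8 and 0 when all libraries had the same sum, and 9 and 0 without NRF ZT4 replicates 3 and 4. Pck1, the enzyme that commits oxaloacetate to glucose, had scaled counts of 992, 647, 665 and 730.1 in DRF ZT16 and 317, 115, 280.2 and 199 in NRF ZT4 (ENSMUSG00000027513, chr2:173153048-173159273). The groups were well apart, and the mean was 3.33 times as high in the dark (log2 difference 1.81 ± 0.36 (SE), adjusted p = 0.00032). G6pc, the phosphatase that frees glucose for export, measured 261, 256, 343 and 364 in DRF ZT16 and 147, 67.5, 97.4 and 140.1 in NRF ZT4 (log2 difference 1.48 ± 0.34 (SE), adjusted p = 0.0017). Slc37a4, which carries glucose 6-phosphate to that enzyme, was higher as well (45.2 ± 4.25 against 21.4 ± 2.83, mean ± SD, n = 4 each; adjusted p = 0.00031). The cytosolic and mitochondrial transaminases that feed amino acid carbon into the pathway were higher too: Got1 had 452, 363, 277 and 362 in DRF ZT16 and 150.2, 131, 74 and 82.8 in NRF ZT4 (log2 difference 1.76 ± 0.22 (SE), adjusted p = 3.1e-07). Gpt2, which turns alanine into pyruvate, had the lowest adjusted p of the list (1.62 ± 0.16 SE, adjusted p = 1.9e-09), with all 4 dark libraries between 764 and 1051 and all light ones between 222 and 369. Ppargc1a, a coactivator of the programme, was higher at 57 ± 8.75 against 35.3 ± 4.93 (adjusted p = 0.0013).

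The urea cycle and amino acid breakdown showed the most calls of any list, 19 of 22 higher and none lower (median 0.61), 16 and 0 with equal library sums, and 13 and 0 without NRF ZT4 replicates 3 and 4. Cps1, which fixes ammonia in the first step of the urea cycle, measured 34223, 26884, 28096 and 29307 in DRF ZT16 and 16969, 18785, 11243 and 11863 in NRF ZT4 (ENSMUSG00000025991, chr1:67123026-67231259). The groups did not overlap, and the means differed 2.01-fold (log2 difference 1.04 ± 0.19 (SE), adjusted p = 9.8e-05). Replicates 3 and 4 of NRF ZT4 were the lowest of the 8 for Cps1. Arg1, which releases urea, was higher at 1408 ± 84.3 against 741 ± 84.9 (adjusted p = 8.2e-08), and so were the cycle's lyase Asl (log2 difference 1.15 ± 0.16 (SE), adjusted p = 1.8e-06), the ornithine carrier Slc25a15 (0.999, adjusted p = 2e-07) and Otc (0.39, adjusted p = 0.00066). Among enzymes that break down single amino acids, Tdo2, the first step for tryptophan, had 1675, 1371, 1200.1 and 1353 in DRF ZT16 and 672, 715, 494 and 439 in NRF ZT4 (log2 difference 1.29 ± 0.15 (SE), adjusted p = 1.2e-07). Sds, the serine dehydratase, which was counted with gluconeogenesis, was higher at 158 ± 25 against 56.7 ± 12.7 (adjusted p = 3.8e-06). The 3 members without a call were Hal, which acts on histidine (0.19, adjusted p = 0.44), Hpd, which acts in tyrosine breakdown (0.36, adjusted p = 0.062), and the glutamine synthetase Glul (-0.04, adjusted p = 0.87).

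**Figure D3:**
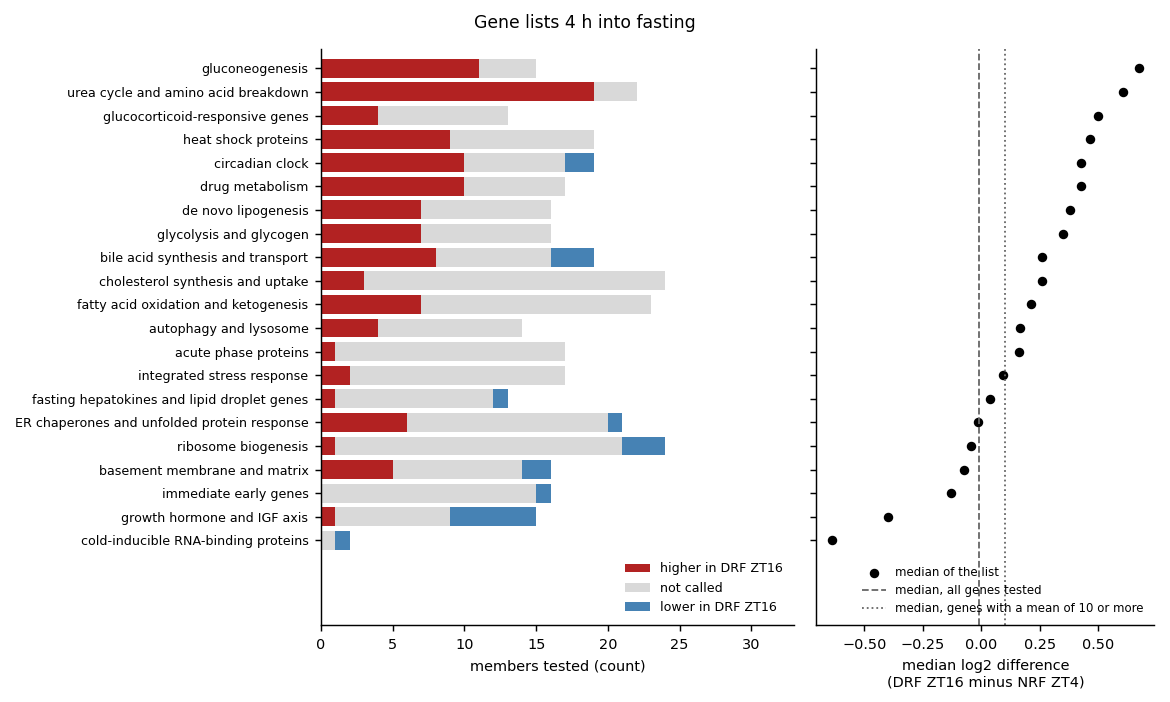
For each of 21 gene lists, the left panel counts the members tested and called higher (red), called lower (blue) or not called (grey), and the right panel gives the median log2 difference, with the median of all genes (-0.01, dashed) and of genes with a mean of at least 10 (0.10, dotted). Gluconeogenesis (0.67) and the urea cycle (0.61) lie at the top, and the growth hormone axis (-0.40) and the 2 cold-inducible genes (-0.64) at the bottom.

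Genes known to respond to glucocorticoids, the adrenal hormones that rise before the active phase, were called higher in 4 of 13 cases and lower in none (median 0.50), and in 3 and 1 with equal library sums. The share higher was near the 25.5% of all genes with a mean of at least 10. Tat, which breaks down tyrosine and is a classical glucocorticoid target in liver, stood at 1131, 731, 669 and 817 in DRF ZT16 and 309, 368, 231 and 222 in NRF ZT4 (ENSMUSG00000001670, chr8:109990437-109999803; log2 difference 1.57 ± 0.25 (SE), adjusted p = 1.3e-05). Tsc22d3, or Gilz, measured 359.8, 201, 196 and 209 in DRF ZT16 and 116, 98.1, 95.1 and 76.5 in NRF ZT4, and DRF ZT16 replicate 1 was far above the other dark libraries (log2 difference 1.28 ± 0.23 (SE), adjusted p = 0.00011). The same library was the highest for Errfi1, a brake on epidermal growth factor signalling (log2 difference 1.496 ± 0.35 (SE), adjusted p = 0.0019), for Ddit4 and for Per1. The call of Ddit4, an inhibitor of mTOR signalling, was lost without DRF ZT16 replicate 1 or NRF ZT4 replicates 3 or 4 in turn (adjusted p up to 0.32). Fkbp5 (77.8 ± 55 against 43 ± 16.9, adjusted p = 0.28), Sgk1 (24.1 ± 4.3 against 22.1 ± 4.6, adjusted p = 0.62) and the metallothionein Mt1 (9.71 ± 4.38 against 19.7 ± 3.54, adjusted p = 0.1) were not called. A glucocorticoid response element, the palindrome of GNACA and TGTNC set 3 bases apart, was in 0.475% of promoters and in those of Mt1 and Sgk1 among the 12 members with a window. This list too was chosen for its response, and the share says nothing of these libraries.

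Heat shock proteins, the chaperones that refold proteins and that in the liver also follow the daily rise of body temperature, were called higher in 9 of 19 cases and lower in none (median 0.46), and in 6 with equal library sums as well as without NRF ZT4 replicates 3 and 4. Hsph1, a large chaperone of the Hsp110 family, had 31.7, 33.9, 26.5 and 30.5 in DRF ZT16 and 18.9, 6.48, 15.3 and 6.85 in NRF ZT4 (ENSMUSG00000029657, chr5:149614287-149636376). The 4 dark libraries lay close together and above all light ones, and the mean was 2.58 times as high (log2 difference 1.42 ± 0.31 (SE), adjusted p = 0.00098). Hspa8, the constitutive Hsc70, measured 398, 424, 257 and 296 in DRF ZT16 and 152, 124, 201 and 134 in NRF ZT4 (log2 difference 1.16 ± 0.23 (SE), adjusted p = 0.00037); the small nucleolar RNA gene Snord14e overlaps it on the same strand. Hspa4l (log2 difference 0.82 ± 0.12 (SE), adjusted p = 2.3e-06), Hsp90ab1 (279 ± 20.8 against 195 ± 21.7, adjusted p = 0.00059) and the mitochondrial Hspd1 (312 ± 22.5 against 237 ± 21.3, adjusted p = 0.0022) were higher too. Chordc1, a partner of Hsp90, was higher by 0.58 with overlapping groups, a call lost without NRF ZT4 replicates 2 or 4 in turn (adjusted p up to 0.067). Hsp90aa1 (78.8 ± 13.4 against 46.3 ± 12.6, adjusted p = 0.29) and the strictly inducible Hspa1b (2.5 ± 0.661 against 1.09 ± 0.478, adjusted p = 0.18) were not called.

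A heat shock element of 3 alternating units (GAA, TTC and GAA, or TTC, GAA and TTC, with any 2 bases between neighbours) stood in 0.603% of the 32851 promoters and in 4 of the 14 members with a window: Hsph1, Hspd1 and Chordc1, called higher, and Hspe1, not called (-0.40, adjusted p = 0.75). The list's genes were chosen for the heat shock response, so this share says nothing of these libraries. The 3 stretches are printed for the element that these called chaperones hold, with the matched bases in capitals (overlapping matches run together), at chr5:149636287-149636308, minus strand, chr1:55088053-55088082, minus strand, and chr9:18292260-18292288, plus strand, all GRCm38.p6 from RefSeq.
Hsph1: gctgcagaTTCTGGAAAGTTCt
Hspd1: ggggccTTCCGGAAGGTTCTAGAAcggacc
Chordc1: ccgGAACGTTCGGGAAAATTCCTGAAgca
The element lay 37 to 49 bases after the start of transcription in Hsph1, 144 to 127 before it in Hspd1, and from 4 before to 19 after it in Chordc1.

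Of the 2 cold-inducible RNA-binding proteins, which are known to be made more at lower body temperature, 1 was called lower, Cirbp. It stood at 0.867, 0.944, 1.59 and 1.25 in DRF ZT16 and 2.31, 3.81, 2.64 and 4.74 in NRF ZT4 (ENSMUSG00000045193, chr10:80165985-80172786). No dark library reached the lowest light one (log2 difference -0.99 ± 0.19 (SE), adjusted p = 0.00023). Rbm3 was not called (-0.28, adjusted p = 0.17), with overlapping groups, and is overlapped by Rbm3os. Of 16 immediate early genes, which respond within minutes to growth factors and stress, 1 was called, Klf2, which was lower (log2 difference -0.53, adjusted p = 0.013). That call was lost without NRF ZT4 replicate 4 (adjusted p = 0.063). Egr1 had 3.18, 1.67, 3.71 and 2.36 in DRF ZT16 and 15.1, 9.41, 12 and 7.73 in NRF ZT4, without overlap but also without a call (log2 difference -1.69 ± 0.70 (SE), adjusted p = 0.09), and Fos (0.176 ± 0.0324 against 0.315 ± 0.137, adjusted p = 0.61) and Jun (1.61 ± 0.148 against 1.75 ± 0.624, adjusted p = 0.93) did not pass.

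Fatty acid oxidation and ketogenesis, the pathway that supplies energy in the fasted liver, gave calls in a minority of its genes. Of 23 genes 7 were called higher and none lower (median 0.21), near the 25.5% higher of all genes with a mean of at least 10. The count was sensitive: without NRF ZT4 replicate 3 it was 11 higher, without NRF ZT4 replicate 1 it was 3 higher and 1 lower, without any 1 of the DRF ZT16 libraries or NRF ZT4 replicate 4 it was 3 or 4 higher, and with equal library sums it was 0 higher and 2 lower. Acaa1b, a peroxisomal thiolase, measured 593, 739, 670.2 and 682 in DRF ZT16 and 381, 418, 554 and 423 in NRF ZT4 (log2 difference 0.60 ± 0.18 (SE), adjusted p = 0.013). The medium-chain dehydrogenase Acadm (0.44, adjusted p = 0.0065) and the very-long-chain dehydrogenase Acadvl (0.38, adjusted p = 0.0012, overlapped by Dvl2) did not overlap between groups. Hadhb, part of the trifunctional protein, was higher by 0.38, a call lost without DRF ZT16 replicates 1, 2, 3 or 4 or NRF ZT4 replicates 1, 2 or 4 in turn (adjusted p up to 0.14). The gatekeeper Cpt1a was at 113 ± 10.5 against 114 ± 34.4 (adjusted p = 0.93) and Ppara, a regulator of the pathway, at 160.1 ± 20.2 against 167 ± 50.043 (adjusted p = 0.96), means ± SD of 4 libraries, and neither was called.

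Among fasting hepatokines and lipid droplet genes 1 of 13 was higher and 1 lower (median 0.04). Plin5, a droplet coat protein that ties droplets to mitochondria, measured 43, 30.5, 24.1 and 20.1 in DRF ZT16 and 13, 7.44, 21.5 and 11 in NRF ZT4 (log2 difference 1.13 ± 0.25 (SE), adjusted p = 0.0009). Plin2, the general droplet coat, measured 141, 193, 188 and 181 in DRF ZT16 and 242, 177, 597 and 365 in NRF ZT4, highest in NRF ZT4 replicates 3 and 4 and overlapping (log2 difference -0.83 ± 0.23 (SE), adjusted p = 0.009). Its call was lost without NRF ZT4 replicate 3 (adjusted p = 0.1). The fasting hormone Fgf21 was near 0 in both groups (0.0361 ± 0.0127 against 0.223 ± 0.237), Angptl4, an inhibitor of lipoprotein lipase, was at 14.7 ± 4.4 against 9.49 ± 5.31 (adjusted p = 0.11) and the pyruvate dehydrogenase kinase Pdk4 at 13.4 ± 2.34 against 25.4 ± 12.3 (adjusted p = 0.11). Without NRF ZT4 replicate 2, 1 member was higher and 3 lower.

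Lipogenic genes, which are high in the fed liver, were called higher in 7 of 16 cases and lower in none (median 0.38), and in 2 without NRF ZT4 replicates 3 and 4. When all libraries had the same sum, 4 were higher and 2 lower. Thrsp, or Spot 14, a promoter of fatty acid synthesis, had 244, 162, 182 and 203 in DRF ZT16 and 61, 71.8, 11.9 and 25.6 in NRF ZT4 (ENSMUSG00000035686, chr7:97412938-97417730). The lowest dark value was above the highest light one and the means differed 4.64-fold (log2 difference 2.48 ± 0.46 (SE), adjusted p = 0.00014). Lpin1, a phosphatase of triglyceride synthesis, measured 277, 81.5, 89.4 and 106 in DRF ZT16 and 41.7, 44.8, 23.3 and 35.9 in NRF ZT4, with DRF ZT16 replicate 1 far above the rest (log2 difference 1.75 ± 0.30 (SE), adjusted p = 5.2e-05). Acacb, the acetyl-CoA carboxylase at the mitochondrion, was higher by 1.11 (adjusted p = 0.0012), and Mid1ip1, which activates that enzyme, by 1.30 (adjusted p = 0.036), a call lost without DRF ZT16 replicates 2, 3 or 4 or NRF ZT4 replicates 3 or 4 in turn (adjusted p up to 0.092). The synthase Fasn (263 ± 63.6 against 233 ± 103, adjusted p = 0.7), Acly (464 ± 78.6 against 364 ± 148, adjusted p = 0.31) and the transcription factor Srebf1 (105 ± 26.8 against 141 ± 40.5, adjusted p = 0.17) were not called.

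In glycolysis and glycogen metabolism 7 of 16 were higher and none lower (median 0.35), 2 and 1 with equal library sums, and 3 and 0 without NRF ZT4 replicates 3 and 4. Pfkfb1, which sets the level of fructose 2,6-bisphosphate, had 21.8, 18.1, 15.6 and 16.2 in DRF ZT16 and 9.65, 7.51, 8.11 and 7.89 in NRF ZT4 (log2 difference 1.02 ± 0.12 (SE), adjusted p = 8.1e-08) and overlaps Apex2. Gbe1, the glycogen branching enzyme, was higher by 0.63 (adjusted p = 0.0014). Ppp1r3b, which targets a phosphatase to glycogen, was higher by 0.82, a call lost without DRF ZT16 replicate 1 or NRF ZT4 replicate 4 in turn (adjusted p up to 0.076), and Txnip, a glucose-induced inhibitor of thioredoxin, by 0.62, lost without DRF ZT16 replicates 2 or 3 or NRF ZT4 replicates 1 or 2 in turn (adjusted p up to 0.09).

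Cholesterol synthesis and uptake gave 3 of 24 higher and none lower (median 0.26). They included Ebp (0.45, adjusted p = 0.00037) and Tm7sf2 (0.52, adjusted p = 0.014), which act in the late steps of the pathway, and Tm7sf2 shares exons with Vps51.

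Bile acid genes moved both ways, 8 of 19 higher and 3 lower (median 0.26), and 2 and 0 without NRF ZT4 replicates 3 and 4. Cyp7a1, the rate-limiting enzyme of bile acid synthesis, spread widely, at 178, 131, 44 and 91.6 in DRF ZT16 and 34.2, 55.2, 29.8 and 26.7 in NRF ZT4 (log2 difference 1.47 ± 0.38 (SE), adjusted p = 0.0049), and its groups overlapped. Akr1d1, a reductase of the same pathway, was higher by 0.76 (adjusted p = 1.9e-05) without overlap. The sterol transporters Abcg5 (-0.53, adjusted p = 0.006) and Abcg8 (-0.80, adjusted p = 0.0013), which pump cholesterol into bile and lie head to head on opposite strands, were lower. The organic anion carrier Slco1a1 was lower too. Abcb11, the bile salt export pump, was not called (0.25, adjusted p = 0.073).

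Of 17 genes of drug metabolism 10 were higher and none lower (median 0.42), 5 and 0 with equal library sums. Cyp2b10, the marker target of the xenobiotic receptor CAR, measured 1108, 629.8, 586 and 395 in DRF ZT16 and 125, 233, 86.3 and 119 in NRF ZT4 (ENSMUSG00000030483, chr7:25897620-25926624; log2 difference 2.26 ± 0.38 (SE), adjusted p = 3.6e-05). Its mean was 4.83 times as high in the dark, and its reads may be shared with Cyp2b9 and Cyp2b13. Cyp3a13 (0.87, adjusted p = 5.2e-07) and Por, the reductase that supplies electrons to all microsomal P450 enzymes (0.76, adjusted p = 2.4e-06), did not overlap between groups. Cyp2a5 was higher by 1.01 with overlapping groups (adjusted p = 0.0046).

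Of 21 genes of the protein-folding machinery of the endoplasmic reticulum (ER) 6 were higher and 1 lower (median -0.02), near the 25.5% and 6.83% of all genes with a mean of at least 10, and with equal library sums 1 and 5. The lower gene was Hspa5, or BiP, the master chaperone of this compartment, at 55.8, 45.9, 50.2 and 62.7 in DRF ZT16 and 111, 76.9, 99 and 88.1 in NRF ZT4 (ENSMUSG00000026864, chr2:34771970-34777547). The groups did not overlap (log2 difference -0.79 ± 0.24 (SE), adjusted p = 0.02), and the call was lost without DRF ZT16 replicate 2 or NRF ZT4 replicate 1 in turn (adjusted p up to 0.062). P4hb, a disulfide isomerase, was higher at 1097 to 1213 against 759 to 875 (log2 difference 0.50 ± 0.08 (SE), adjusted p = 2.7e-05). Edem1, which sends misfolded proteins to destruction, and the stress sensor Atf6 were higher by 0.42 and 0.41. Hsp90b1 (-0.21, adjusted p = 0.36), Calr (0.06, adjusted p = 0.83) and Pdia4 (-0.10, adjusted p = 0.67) were not called. The count fell to 4 members without DRF ZT16 replicate 1, 2 or 4 or NRF ZT4 replicate 2 or 4 in turn, and to 2 without NRF ZT4 replicates 3 and 4.

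The ER stress response element, CCAAT and CCACG with any 9 bases between them, sought on both strands, was in 0.119% of promoters and in 8 of the 18 members with a window, 3 of them called: Canx and Dnajc3 higher and Hspa5 lower. Since the list's genes were chosen for this response, the share says nothing of these libraries. The Hspa5 element, 65 to 47 bases before the start (chr2:34772020-34772048, plus strand, GRCm38.p6, RefSeq), is printed with its capitals because genes that hold the same letters went both ways.
Hspa5: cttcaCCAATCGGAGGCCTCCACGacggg

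Of 17 genes of the integrated stress response 2 were higher, Cth (0.96, adjusted p = 0.00047), which makes cysteine, and Vldlr (0.90, adjusted p = 0.0011), and none without NRF ZT4 replicates 3 and 4. Its transcription factor Atf4 was at 8.7 ± 0.945 against 9.92 ± 2.55 (adjusted p = 0.63). Of 24 genes of ribosome biogenesis 1 was higher, Utp20 (0.42, adjusted p = 0.0033), and 3 lower, the nucleolar proteins Nop58 (-0.53, adjusted p = 0.013), Ncl (-0.42, adjusted p = 0.031) and Noc4l (-0.28, adjusted p = 0.02). Scaled to equal library sums, 0 were higher and 9 lower. The call of Nop58 was lost without DRF ZT16 replicate 1 or NRF ZT4 replicate 1 in turn (adjusted p up to 0.073). That of Ncl was lost without DRF ZT16 replicates 1, 2, 3 or 4 or NRF ZT4 replicates 1, 2 or 3 in turn (adjusted p up to 0.082), and that of Noc4l without DRF ZT16 replicate 3 or NRF ZT4 replicate 3 in turn (adjusted p up to 0.1). Nop58 and Ncl host small nucleolar RNAs in their introns.

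The growth hormone and IGF axis was the list with most members lower, 6 of 15, with 1 higher (median -0.40). Igfals, the acid-labile subunit that keeps IGF1 in the blood, had 26.3, 15.1, 16.7 and 15.9 in DRF ZT16 and 77.9, 65.8, 102 and 81.6 in NRF ZT4 (ENSMUSG00000046070, chr17:24865997-24882010). Light libraries held 4.41 times the dark mean, and DRF ZT16 replicate 1 stood above the other 3 dark ones (log2 difference -2.10 ± 0.40 (SE), adjusted p = 0.00022). Igfbp2, a further IGF carrier, was lower at 36.8, 50.6, 43.7 and 43.6 in DRF ZT16 and 63.1, 82.4, 101 and 104 in NRF ZT4 (log2 difference -0.97 ± 0.20 (SE), adjusted p = 0.00046). Hsd3b5 and Serpina1e, genes known to be higher in male than in female mouse liver, were lower as well. Hsd3b5 measured 0.0346, 0.135, 0.307 and 0.385 in DRF ZT16 and 2.74, 2.25, 12.4 and 7.43 in NRF ZT4 (log2 difference -2.33 ± 0.62 (SE), adjusted p = 0.006), and its 2 highest libraries were NRF ZT4 replicates 3 and 4. Without these libraries the list had 1 higher and 1 lower member. Igf1 (819 ± 54.7 against 928 ± 147, adjusted p = 0.51) and the receptor Ghr (0.17, adjusted p = 0.13) were not called.

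Acute phase proteins gave 1 call of 17, Crp, which was higher (0.46, adjusted p = 0.0017), and the number rose to 2 or 3 without DRF ZT16 replicate 3 or 4 or NRF ZT4 replicate 2 or 3. With equal library sums 0 were higher and 3 lower. Hp (0.58, adjusted p = 0.053), Lcn2 (0.77, adjusted p = 0.095) and Saa1 (17.5 ± 19.3 against 9.72 ± 4.2, adjusted p = 0.54) did not pass. Of 16 basement membrane and matrix genes 5 were higher and 2 lower (median -0.08), and 2 and 8 with equal library sums. Timp3, an inhibitor of matrix proteases, had the lowest adjusted p of the named genes, at 30.5, 27.5, 27.5 and 26.5 in DRF ZT16 and 14.5, 15.9, 12.7 and 13 in NRF ZT4 (ENSMUSG00000020044, chr10:86300372-86349506; log2 difference 0.95 ± 0.08 (SE), adjusted p = 3.7e-11), and lies in an intron of Syn3 on the other strand. Col4a1 (-0.72, adjusted p = 9.5e-06) and Col4a2 (-0.72, adjusted p = 6.2e-05), the paired chains of basement membrane collagen that share a promoter, were lower together, while P4ha1, which hydroxylates collagen, was higher (0.91, adjusted p = 0.00041). In autophagy and lysosome 4 of 14 were higher and none lower (median 0.16): Map1lc3b (0.89, adjusted p = 0.0036), Lamp2 (0.51, adjusted p = 1.1e-06), Ctsd (0.37, adjusted p = 0.00056) and Atg14 (0.37, adjusted p = 0.0056). In this list 2 were higher and 1 lower with equal library sums. The shares higher in the matrix list and in this one were near the 25.5% of all genes with a mean of at least 10.

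Outside the lists, the genes with the largest called differences and a mean of at least 10 in the higher group included several with roles in transport and conjugation. Mfsd2a, a carrier of lysophospholipids, measured 91.8, 59.3, 37.3 and 39.7 in DRF ZT16 and 17.6, 7.78, 15.3 and 7.87 in NRF ZT4 (log2 difference 2.13 ± 0.33 (SE), adjusted p = 8.9e-06). Nnmt, which methylates nicotinamide, measured 318, 229, 199 and 174 in DRF ZT16 and 74.5, 83, 53.7 and 45 in NRF ZT4 (log2 difference 1.83 ± 0.23 (SE), adjusted p = 4.2e-07). Neither overlapped. Of 7 sulfotransferase genes of the Sult2a cluster on chromosome 7, which act on steroids and bile acids, 3 were called higher and 4 were not called. Among all genes with a mean of at least 10, 25.5% were higher. Sult2a3 had 49.6, 49.7, 31 and 36.6 in DRF ZT16 and 11.6, 6.76, 1.19 and 2.1 in NRF ZT4 (ENSMUSG00000074375, chr7:14067446-14123044; log2 difference 3.05 ± 0.67 (SE), adjusted p = 0.001). Sult2a5 (1.91, adjusted p = 0.019) and Sult2a1 (1.87, adjusted p = 0.048) followed, and their calls were lost without NRF ZT4 replicates 3 or 4 in turn (adjusted p up to 0.089) for Sult2a5 and without DRF ZT16 replicates 1, 2, 3 or 4 or NRF ZT4 replicates 3 or 4 in turn (adjusted p up to 0.15) for Sult2a1. Gsta1, a glutathione transferase, had 33.6, 16.6, 35 and 25.7 in DRF ZT16 and 9.41, 8.39, 1.15 and 4.57 in NRF ZT4 (log2 difference 2.24 ± 0.62 (SE), adjusted p = 0.0083), and its call was lost without NRF ZT4 replicate 3 (adjusted p = 0.058). Members of both families are near-identical and the division of reads between them is uncertain. For all 4 genes NRF ZT4 replicates 3 and 4 held the lowest values.

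On the lower side, Osgin1, a target of the oxidative stress factor Nrf2, had 10.2, 17.2, 26 and 19.1 in DRF ZT16 and 39.6, 51.8, 183 and 163 in NRF ZT4 (ENSMUSG00000074063, chr8:119434124-119446256; log2 difference -2.30 ± 0.53 (SE), adjusted p = 0.0017), and the 2 highest libraries were again NRF ZT4 replicates 3 and 4. Slco1a1 measured 11.5, 9.24, 14.6 and 12.2 in DRF ZT16 and 40.4, 26.3, 96.7 and 65.9 in NRF ZT4 (log2 difference -2.03 ± 0.52 (SE), adjusted p = 0.0047), with the same 2 libraries highest. Serpina1e had 210.0, 163, 201 and 227 in DRF ZT16 and 300.1, 567, 1313 and 596 in NRF ZT4 (log2 difference -1.600 ± 0.49 (SE), adjusted p = 0.019), and its call was lost without DRF ZT16 replicate 2 or NRF ZT4 replicate 3 in turn (adjusted p up to 0.1). Without NRF ZT4 replicates 3 and 4 together, the calls of Osgin1, Slco1a1, Serpina1e, Sult2a3, Sult2a5, Sult2a1, Gsta1 and AC127342.1 were lost. Bach2, a transcriptional repressor with an antisense neighbour, Bach2os, measured 14.2, 26.8, 27.5 and 19.7 in DRF ZT16 and 85.1, 45.9, 72.2 and 78.9 in NRF ZT4 (log2 difference -1.64 ± 0.26 (SE), adjusted p = 1.4e-05). The adhesion receptor Adgrf1 (-1.54, adjusted p = 9.8e-05), the major urinary protein gene Mup19 (-1.48, adjusted p = 0.003), whose family is near-identical, the gene AC127342.1 (-1.81, adjusted p = 0.0081) and the antibody segment Igkv1-117 (-3.15, adjusted p = 0.0029) were lower too.

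A pair of genes in this set lay either near 0 or well above it. mt-Co3, a mitochondrial subunit of cytochrome oxidase, was listed at 0.0951, 0.0897, 0.0997 and 0.0996 in DRF ZT16 and 140.4, 199, 0.133 and 139 in NRF ZT4, so that 1 of the 4 light libraries sat with the dark ones near 0. Zfp281 measured 20.1, 5.98, 12.4 and 16.6 in DRF ZT16 and 0.00676, 0.0039, 0.00816 and 0.597 in NRF ZT4 (3.59, adjusted p = 0.029), its call was lost without DRF ZT16 replicates 1, 3 or 4 or NRF ZT4 replicates 1, 2 or 3 in turn (adjusted p up to 0.074), and under DRF at ZT0 as well its libraries ran from 0.00605 to 15.8. Of the 104 genes named by rule, 92 were called, and 72 of these calls held when any 1 of the 8 libraries was left out.

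A comparison of dark against light in fed liver was set beside this one. Its regimens are swapped, so it cannot show whether a difference belongs to fasting or to the regimen. At 4 h into feeding, NRF ZT16 (dark) was compared with DRF ZT4 (light), in 8 other libraries. There 3714 genes were called (14.9%), 1475 higher in the dark (5.92%) and 2239 lower (8.98%). Of the genes called higher in the dark 4 h into fasting, 494 were also higher in the dark 4 h into feeding, 20.6% of the first list and 33.5% of the second. Of those called lower, 475 were shared, 24.5% and 21.2%. In the opposite direction 121 of the higher and 27 of the lower genes were called. Leaving out NRF ZT16 replicate 1 took the fed count to 2236.

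The difference between both differences was tested as an interaction. Since each regimen appears once on either side, it equals arithmetically the sum of ZT16 and ZT4 under DRF less the sum under NRF, that is, the regimen difference over both times. It was called in 1946 genes (7.8%), 1259 above 0 (5.05%) and 687 below (2.76%), and this count was 3246 without NRF ZT16 replicate 4, 1135 without NRF ZT16 replicate 1, 1210 without NRF ZT16 replicate 3, 1222 without DRF ZT4 replicate 4 and 1296 without NRF ZT4 replicate 1. Among the 6651 genes with a mean of at least 10, 865 passed above 0 and 196 below. Of the urea cycle and amino acid list 15 of 22 passed above 0 (median 0.71), and in the fed comparison itself 1 member was higher and 1 lower (median -0.09). For Gpt2 the fed difference was -0.15, adjusted p = 0.57, and the interaction log2 difference 1.77 ± 0.23 (SE), adjusted p = 1.9e-05. For Cth and Vldlr the fed difference was below 0 (-0.69, adjusted p = 0.014, and -0.70, adjusted p = 0.013).

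Gluconeogenic genes passed the interaction in 6 of 15 and fatty acid oxidation in 7 of 23, all above 0. The mark for these lists is again the 865 above 0 and 196 below of 6651 genes. In fed liver oxidation genes were lower in the dark in 3 cases. Pck1 did not pass (0.81, adjusted p = 0.34), nor did G6pc (0.88, adjusted p = 0.27). Of the clock, 4 genes passed, all above 0: Tef (1.35, adjusted p = 0.00097), Per3 (1.30, adjusted p = 0.003), Dbp (1.35, adjusted p = 0.004) and Cry2 (0.53, adjusted p = 0.019). Nr1d1 was lower in the dark in both states (-0.96, adjusted p = 0.029 when fed), and no interaction was called (-0.19, adjusted p = 0.86). The growth hormone list passed in 5 of 15 members, all below 0, with Serpina1e at -3.71, adjusted p = 0.00086. Timp3, Col4a1 and Col4a2 differed in the same direction in both states, by 0.90, -0.88 and -0.88 when fed.

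At 8 h after food removal, DRF ZT20 was compared with NRF ZT8, again in other libraries, and 4122 genes were called (16.5%), 1984 higher (7.96%) and 2138 lower (8.57%). Of the genes higher at 4 h of fasting 1156 were higher at 8 h as well, 48.3% of the first and 58.3% of the second list, and of the lower genes 807, 41.7% and 37.7%. In the opposite direction stood 9 and 5 genes. In all 3 comparisons 359 genes were higher in the dark and 291 lower. Among the 6651 genes with a mean of at least 10, 1363 were higher and 583 lower at 8 h. The lists differed in their counts. The urea cycle list had 14 of 22 higher and gluconeogenesis 8 of 15, and G6pc was then higher by 2.21 (adjusted p = 9.8e-06). Heat shock proteins had 6 of 19 higher. The cholesterol list had 11 of 24 lower and none higher (median -0.59), against 3 higher at 4 h.

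The clock list gave another picture at 8 h. There 5 of its genes were higher in the dark and 6 lower, and Per1, higher by 1.33 at 4 h, was not called (-0.60, adjusted p = 0.14). Per3, higher at 4 h, was lower at 8 h (-0.66, adjusted p = 0.015). Arntl, not called at 4 h, was higher at 8 h (1.57, adjusted p = 1.1e-07). Dbp (-1.44, adjusted p = 4.8e-06), Bhlhe41 (-1.07, adjusted p = 1.7e-09) and Ciart (-0.75, adjusted p = 5.9e-06) were lower there. Nr1d1 was lower at both (-1.57, adjusted p = 0.00034 at 8 h), and Cry1 higher at both (0.99, adjusted p = 0.00034).

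**Figure D4:**
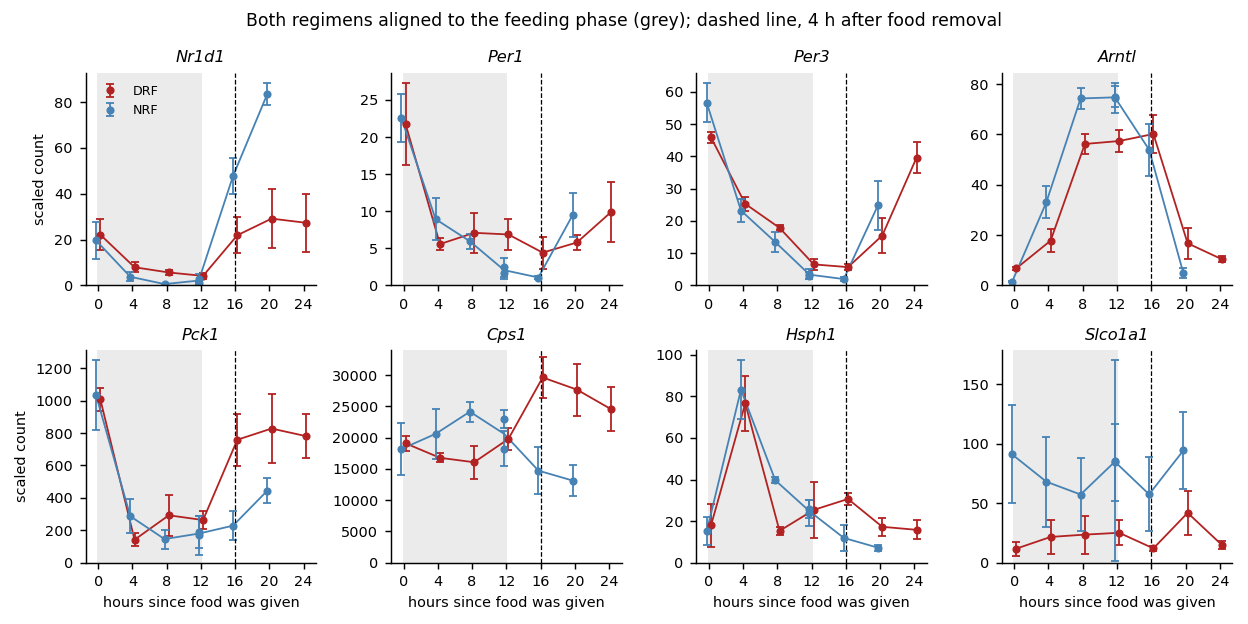
Mean scaled count ± SD (4 libraries a point) of 8 genes by hours since food was given, DRF in red and NRF in blue, with the 12 h of feeding in grey and 4 h after food removal dashed; under DRF, ZT0 is drawn at 0 and ZT24 at 24 h, and under NRF both lie at 12 h. At the dashed line Nr1d1 and Slco1a1 are lower and Per1, Per3, Pck1, Cps1 and Hsph1 higher under DRF, and the 2 means of Arntl lie together.

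The kinds of gene were unevenly spread among the calls. Of 15028 protein coding genes 2128 were higher in DRF ZT16 and 1223 lower (14.2% and 8.14%). Of 1640 antisense genes, which are transcribed across another gene on the opposite strand, 17 were higher and 241 lower (1.04% and 14.7%), and of 1072 long intergenic RNAs 33 and 99 (3.08% and 9.24%). This imbalance moved with single libraries and with the scaling: 138 antisense genes were lower without NRF ZT4 replicate 3, 158 without NRF ZT4 replicate 4, and 50 without both, with 14 higher. With equal library sums 482 were lower and 8 higher, and with a replicate block 10 and 0. The comparisons that hold none of the NRF ZT4 libraries gave 240 lower and 23 higher of 1640 in fed liver and 284 and 10 at 8 h of fasting. In the interaction 21 passed above 0 and 22 below.

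**Figure D5:**
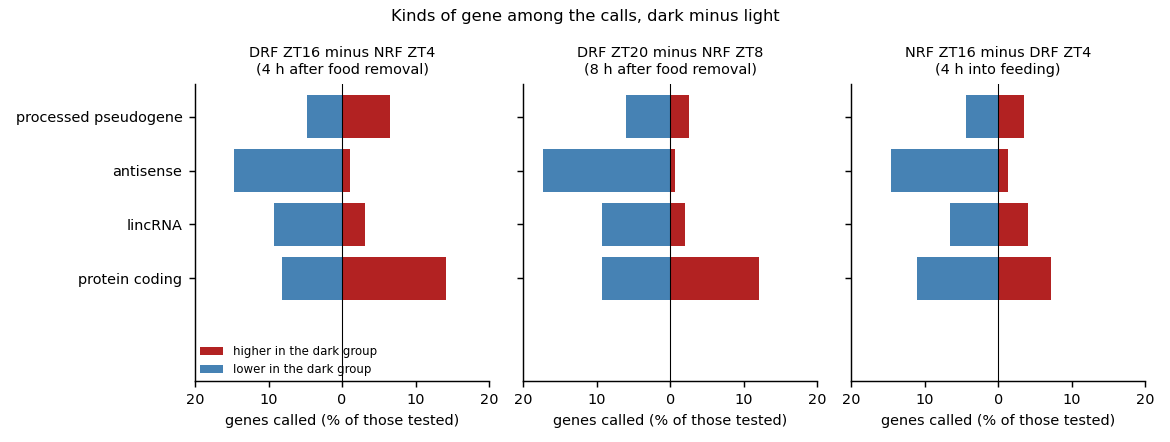
Share of genes called higher (red, to the right) and lower (blue, to the left) in the dark group among protein coding genes, lincRNAs, antisense genes and processed pseudogenes, in percent of those tested of each kind, for the 3 comparisons of dark against light. Antisense genes lie mostly to the left in all 3, at 14.7% lower 4 h after food removal, 17.3% at 8 h and 14.6% in fed liver.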

How the data were processed

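The study measured liver RNA by stranded, paired-end sequencing after ribosomal RNA removal, per the labels' protocol, although the labels' molecule field names polyadenylated RNA. The submitters' processing notes name CASAVA 1.8, featureCounts 1.5.0-p3 and the builds mm10 and GRCm38.p6; the aligner is not given in the sources used here, nor is the strand setting of the counting. The authors deposited 1 value per gene and library, called TPM, but the values were a logarithm of the count divided by exon length, and they are treated here as a score. The planned test had assumed linear TPM. The score was multiplied by exon length, and the logarithm was undone with constants fitted in each library. This gave whole counts (374283110 to 594270959 per library in these 8, so that a count is not a read pair), which the fitted constants also scaled between libraries. Then log2(scaled count + 1) was tested with limma 3.58.1 in R 4.3.3 (14 group means over 56 libraries, 42 residual degrees of freedom, trended eBayes, Benjamini-Hochberg adjustment over 24933 genes, threshold 0.05). The step was tested on simulated data. In 265 genes whether the recovered counts were whole was left undecided, their counts being very large, among them Sult2a1, Tat, Gpt2, Gbe1, Acaa1b, Cyp2a5, P4hb, Cth, Tdo2, Cps1 and Hp. Lengths were found by search in 1633 genes judged at a tolerance of 0.05 counts and in 127 judged at 0.2. Igfals, AC127342.1 and Tm7sf2 were among these. Genes that could not be rebuilt, among them Scd1, Acaa2, Gpam and Fads2, and the transcript and circRNA tables were not used here. Some genes counted in the lists are not reported here by name. What was counted is not given in the sources used here, so counting error was not derived, and precision is given as the spread between libraries.

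Members, lists and tests were chosen with earlier results of these data known. Named genes were, by rule, the 10 higher and 10 lower genes with the largest called differences, groups without overlap and a mean of at least 10 in the higher group (predicted models left out), all clock genes, up to 4 called members of every other list, or the 2 with the largest difference where fewer than 2 were called, and the 5 of the first set with the largest called interaction. Other genes were named after their values were seen. Comparisons of single library measures used exact permutation tests, two-sided. Alternatives were the deposited values, other pseudocounts, filters, scalings and variance models, only the groups compared, a replicate block, each library left out, and, added after seeing the data, equal library sums and NRF ZT4 replicates 3 and 4 both left out.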

Additional observations from a re-analysis of the deposited data

Results flagged for a closer look

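In 222 groups of 4 libraries, formed by the named genes and the library measures, 19 held a sample that stood apart from the other 3 by Dixon's 95% criterion for 4 values, and chance alone flags about 1 in 20 groups. In DRF ZT16 replicate 1 this held for Igfals (26.3 against 15.1 to 16.7), Arntl (71.2 against 55.6 to 56.9), Tsc22d3 (359.8 against 196 to 209), Ddit4 (6.9 against 1.55 to 2.43), Lpin1 (277 against 81.5 to 106) and Utp20 (46.5 against 42.1 to 42.4). For DRF ZT16 replicate 2 it was the antisense index (-0.216 against -0.0729 to -0.0593) and the percentage of mitochondrial counts (0.176 against 0.596 to 0.683). In DRF ZT16 replicate 3 this held for Hadhb (102 against 92.9 to 94.2). For DRF ZT16 replicate 4 it was Bhlhe41 (0.0827 against 0.0995 to 0.102) and Klf2 (1.84 against 1.6 to 1.63). In NRF ZT4 replicate 2 this held for Ctsd (302 against 254 to 259.7). For NRF ZT4 replicate 3 it was Tef (10.7 against 13.2 to 13.4), Per3 (1.23 against 2.09 to 2.27), Ciart (0.0102 against 0.0383 to 0.0425) and Hadhb (94.3 against 65.9 to 70.3). In NRF ZT4 replicate 4 this held for Zfp281 (0.597 against 0.0039 to 0.00816), Errfi1 (110.1 against 35 to 46.8) and Lamp2 (182 against 214 to 219).

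Of the 104 named genes 42 differed between the comparison 4 h into fasting and the one 4 h into feeding, tested as an interaction in limma with an adjusted p under 0.05. Over all genes the share was 7.8%. Most named genes were chosen by their difference 4 h into fasting, which is part of the interaction. Their share therefore cannot be set against that of all genes. For most of them the value is given in parentheses, as the log2 difference DRF ZT16 minus NRF ZT4 less that of NRF ZT16 minus DRF ZT4, which equals the regimen difference summed over ZT4 and ZT16. It was above 0 in Sult2a3 (4.97), Gsta1 (4.59), Sult2a5 (2.92), Thrsp (2.10), Cyp2b10 (2.04), Gpt2 (1.77), Mfsd2a (1.69), Cth (1.65), Vldlr (1.601), Got1 (1.39), Tef (1.35), Dbp (1.35), Per3 (1.30), Nnmt (1.30), Asl (1.25), Hspa8 (1.09), Acaa1b (1.05), Pfkfb1 (0.92), Tdo2 (0.82), P4hb (0.80), Slc25a15 (0.78), Acadm (0.68), Akr1d1 (0.67), Cyp3a13 (0.57), Cry2 (0.53), Ctsd (0.53), Acadvl (0.53), Por (0.51), Ebp (0.49) and Edem1 (0.49). It was below 0 in mt-Co3 (-6.22), Slco1a1 (-3.71), Serpina1e (-3.71), Igkv1-117 (-3.62), Hsd3b5 (-3.10), Mup19 (-2.61), AC127342.1 (-2.32), Igfals (-2.07), Adgrf1 (-1.54), Bach2 (-1.23) and Igfbp2 (-1.01).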

How the results depend on the processing

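Of the 92 called named genes none changed direction under any alternative; 83 stayed called on the values as deposited, 72 with equal library sums, 74 with only the groups compared in the fit, 57 without NRF ZT4 replicates 3 and 4, and 82 to 87 without any 1 library. With those 2 libraries left out the count of genes called between DRF ZT16 and NRF ZT4 was 2216, and of named genes 57. Of list members 85 were called, against 136 with all libraries, and the 85 include members not called with all libraries. A refit on genes with a mean of at least 10, which tests fewer genes, called 2459 genes 4 h after food removal, 2250 at 8 h and 1808 in fed liver. With only the groups compared, which leaves fewer samples, 2964 genes were called at 4 h, 1033 in fed liver and 740 for the interaction. On the deposited values the interaction was 963. Leaving out 1 library at a time gave 3184 to 4129 genes at 4 h, 3001 to 3620 at 8 h, 2236 to 4337 in fed liver (2236 without NRF ZT16 replicate 1) and 1135 to 3246 for the interaction (3246 without NRF ZT16 replicate 4, 1135 without replicate 1 of that group), with 83 to 88 named genes and 114 to 135 list members. The median of 4 lists changed sign with equal library sums (acute phase, autophagy, hepatokines, integrated stress response) and of 3 lists on the deposited values (ER, matrix, ribosome biogenesis). The cause of these changes was not tested. Values that changed sign belonged to 4 genes without a call: Arntl was -0.043 with equal library sums and -0.041 without NRF ZT4 replicates 3 and 4, Hlf 0.010 on the deposited values, Dbp -0.035 with equal sums, -0.0420 without those libraries and -0.077 to 0.28 without 1 library, and Bhlhe41 0.014 on the deposited values and -0.025 to 0.00955 without 1 library. Since what was counted is not known, the limit that depth sets was not derived, and for genes below 1 scaled count the pseudocount compresses the differences.

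The groups share replicate numbers, but the labels tie no number to a litter, batch or day. Deviations of same-numbered libraries correlated at 0.00, 0.08, 0.00 and 0.04, and not every library correlated best with its own number, so the numbers did not pair the samples. With a replicate block, 417 genes were called at 4 h, 1506 at 8 h, 0 in fed liver (5431 at an unadjusted p under 0.05) and 412 for the interaction, with 28 named genes and 28 list members.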

Other observations

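Families of genes that no list held were counted after their values had been seen. The families of conjugating and oxidising enzymes differed in how many members were called higher in DRF ZT16 4 h after food removal, where 25.5% of genes with a mean of at least 10 were higher and 6.83% lower. Of the 1301 genes with a mean of 100 or more, 555 were higher, so 25.5% is a low mark for abundant genes. Of 18 Ugt genes, the glucuronosyltransferases, 6 were called higher and none lower (median log2 difference 0.37), of 7 Cyp3a genes 4 and 0 (median 0.67), and of 4 Gsta genes 3 and 0 (median 0.82). Of 3 Cyp2b and 3 Cyp2c genes 1 each was higher, and of 7 Gstm (median 0.26) and 6 Cyp4a genes (median 0.35) none was called. Of 6 flavin monooxygenases 3 were called higher and 3 were not called (median 0.53). Among them Fmo5 stood at 1017 ± 244 against 299 ± 85.6 scaled counts (mean ± SD, n = 4 each, log2 difference 1.78, adjusted p = 2.7e-08) and Fmo2 at 40.1 ± 6.92 against 22.4 ± 4.27 (0.82, adjusted p = 4.3e-06). Proteasome subunits were higher in 13 of 38 and lower in none (median 0.18), and subunits of NADH dehydrogenase in 14 of 36 and none (median 0.17). Of 82 ribosomal protein genes 8 were higher and 2 lower (median 0.10). Collagens gave 4 of 35 lower and none higher, and kappa antibody segments 6 of 57 lower and none higher, against 7.77% of all genes lower. Of 116 small nucleolar RNAs 1 was called.

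Genes chosen after their values were seen that are known to differ between male and female mouse liver were of both kinds in these female animals. Those known as higher in males, Slco1a1, Serpina1e, Hsd3b5 and Mup19, were lower in DRF ZT16, and Mup12 measured 599 ± 384 against 4544 ± 4342 without a call (-2.31, adjusted p = 0.14). Others of that kind were not called and lay on the other side, Mup20 (0.36, adjusted p = 0.41) and Cyp4a12a (0.35, adjusted p = 0.74), and of 20 Mup genes 2 were called lower and none higher (median -0.24). Those known as higher in females, Sult2a3 and Sult2a1, were higher, and Cyp3a16 (375 ± 184 against 96.6 ± 93.3, 2.35, adjusted p = 0.13), Cyp2b9 (0.31, adjusted p = 0.077) and Cyp2b13 (0.33, adjusted p = 0.28) were not called, nor was Cyp3a44, with a difference below 0 (-0.79, adjusted p = 0.28). In fed liver Serpina1e was higher in the dark group, which was then the NRF one (2.11, adjusted p = 0.0031), as were Slco1a1 (1.68, adjusted p = 0.024) and Mup19 (1.13, adjusted p = 0.028), and Sult2a3 was lower (-1.92, adjusted p = 0.046). For these 4 genes the sign relative to the regimen was therefore the same in both states. Most of the genes named here belong to families of near-identical copies, between which reads may be divided. Nothing was tested on these genes as a set.

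Predicted genes were outside the naming rule, and 2 of them had the largest called differences of the table: Gm47287 stood at 638 ± 130 scaled counts in DRF ZT16 and 0.00212 ± 0.00015 in NRF ZT4, a log2 difference of 9.29, and Gm47305 at 667 ± 502 and 0.00212 ± 0.00015, a difference of 7.31 with overlapping groups. In NRF ZT4, 1 scaled count equals 443.7 to 513.5 recovered counts, so both genes lay at the floor there. Like mt-Co3 and Zfp281 they lay near 0 or well above it, and the size of these differences is not a measured ratio.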
